A study of Sus scrofa with 6 samples.

Results

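SLC28A1, the concentrative nucleoside transporter CNT1, was examined together with 9 other genes of nucleoside uptake, adenosine formation and breakdown, rephosphorylation and sensing, in RNA from the renal cortex of pigs. The other genes were SLC28A2, SLC28A3, SLC29A1, NT5E, ADA, PNP, XDH, ADORA1 and ADK. They were found on the array by the gene name of each probe, by an older name, by a gene number or accession, or by the full protein name in the probe's description. Of the 10 genes, 7 had a probe, among 5235 named genes on the array, and these 7 had 17 of its 43603 probes. No probe was matched to SLC28A3, ADA or XDH, and these 3 are not analysed here. The gene that gives the set its name was picked because its values differed between the groups in these same arrays, so its difference and those of its fellow members are given as descriptions.

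The study compared kidneys of Large White pigs aged 3 months. In the ischemia group (n = 3 kidneys), the organ was clamped, kept at 37 °C for 60 min while clamped, rinsed through with an organ preservation fluid, cold University of Wisconsin solution, and stored at 4 °C for 24 h before it was sampled. In the control group (n = 3 kidneys), the organ was sampled and frozen as soon as it had been removed. All kidneys came from different pigs, none was reperfused, and clamping, flush and cold storage were applied as 1 sequence, so the steps cannot be told apart. Each kidney gave 1 array. The 3 slides each carried 1 ischemia and 1 control array, and because all ischemia arrays were in position 3 and all control arrays in position 4, a position effect cannot be told apart from the group. Between 52.6% and 61.4% of the spots of an array were well above background, no spot was saturated, and the arrays correlated at 0.960 to 0.983. Having 3 arrays a group sets the precision of all values. All 12 proximal tubule markers with a probe, of 15 listed, were well above background on all 6 arrays.

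Nucleosides enter cells by sodium-coupled concentrative carriers of the SLC28 family and by equilibrative carriers of the SLC29 family, which let them pass in either direction down their gradient. In the proximal tubule, SLC28A1 lies in the brush border and takes up mainly pyrimidine nucleosides from the filtrate, and SLC28A2 takes up mainly purine nucleosides. When ATP is broken down without oxygen, adenosine forms outside the cell through the ectonucleotidase CD73, the product of NT5E, and is removed by deamination, by phosphorolysis of the resulting inosine by PNP, or by rephosphorylation to AMP by adenosine kinase, ADK. Adenosine also acts on its own receptors, of which ADORA1 constricts the afferent arteriole.

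Each value below belongs to 1 probe, a designed oligonucleotide of 60 bases. The sequences that carry the main result are those of the SLC28A1 probes, which show that the 2 probes read different stretches of the transcript. The SLC28A2 probe is shown beside them as that of the sister transporter, and 2 ADK probes because they behaved differently. They are printed 5′ to 3′ in lower case as the array files give them, whole or as the first 30 bases, and no base is marked.

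SLC28A1 A_72_P178156 (first 30 bases): atgataggagacaatttccaaatttggcca
SLC28A1 A_72_P709230 (whole): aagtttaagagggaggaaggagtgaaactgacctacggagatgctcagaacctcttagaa
SLC28A2 A_72_P118816 (whole): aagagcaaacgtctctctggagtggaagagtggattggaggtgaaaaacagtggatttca
ADK A_72_P532603 (whole): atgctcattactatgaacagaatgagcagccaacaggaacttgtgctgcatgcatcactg
ADK A_72_P394203 (first 30 bases): cctgccacctttcttactataataatgttc

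The SLC28A1 probes shared no stretch of 15 bases or more with each other. None of the 17 member probes shared a stretch of 20 bases, on either strand, with any other probe of the array, whereas 9.43% of all probes did.

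SLC28A1 was lower in every ischemia kidney than in every control kidney on its brighter probe, A_72_P178156, which was well above background on all 6 arrays. The signal of A_72_P178156, after the scanner software had removed the background, was 63.3, 59.1 and 53.6 units in ischemia kidneys 1, 2 and 3, against 352, 259 and 217 units in control kidneys 1, 2 and 3. To compare arrays, each signal was turned into log2 and the 75th percentile of its array was subtracted, which gives the array value used from here on. This array value was -2.73, -2.07 and -2.46 in the ischemia kidneys, against 0.45, -0.05 and -0.30 in the control kidneys. The groups did not overlap, and the highest ischemia kidney lay 1.76 below the lowest control kidney (a gap of -1.76 on the log2 scale). The mean array value was -2.42 ± 0.33 in ischemia and 0.03 ± 0.39 in control (SD, n = 3 each), a difference of -2.45 ± 0.28 (SE from limma), so the control mean was 5.46-fold the ischemia mean. Within slides 1, 2 and 3 the difference was -2.52, -2.40 and -2.42, so it was nearly the same in each pair of arrays scanned together. Of the 25017 probes tested, 0.0759% had a lower difference.

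The second SLC28A1 probe, A_72_P709230, was dim: no array had it well above background, so no fold change is given for it and it did not pass the filter on dim probes. Its array value was -6.78, -6.03 and -6.21 in the ischemia kidneys, against -3.87, -4.18 and -4.83 in the control kidneys. These groups did not overlap either. Among probes that passed the filter, which this one did not, 5% had ischemia wholly below control. That share was not counted among dim probes. Without the filter, 63.7% of all probes had a difference below 0, against 55.7% with it. The order of the kidneys was that of the brighter probe (Pearson r = 0.989 over the 6 arrays, and 0.924 for the deviations from the group means). The first r carries the gap between the groups, for which the gene was picked. For the deviations, a dim probe of another member, ADORA1 A_72_P687910, had an r of 0.958. Both r are therefore given as a description, and nothing is read from them.

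**Figure D1:**
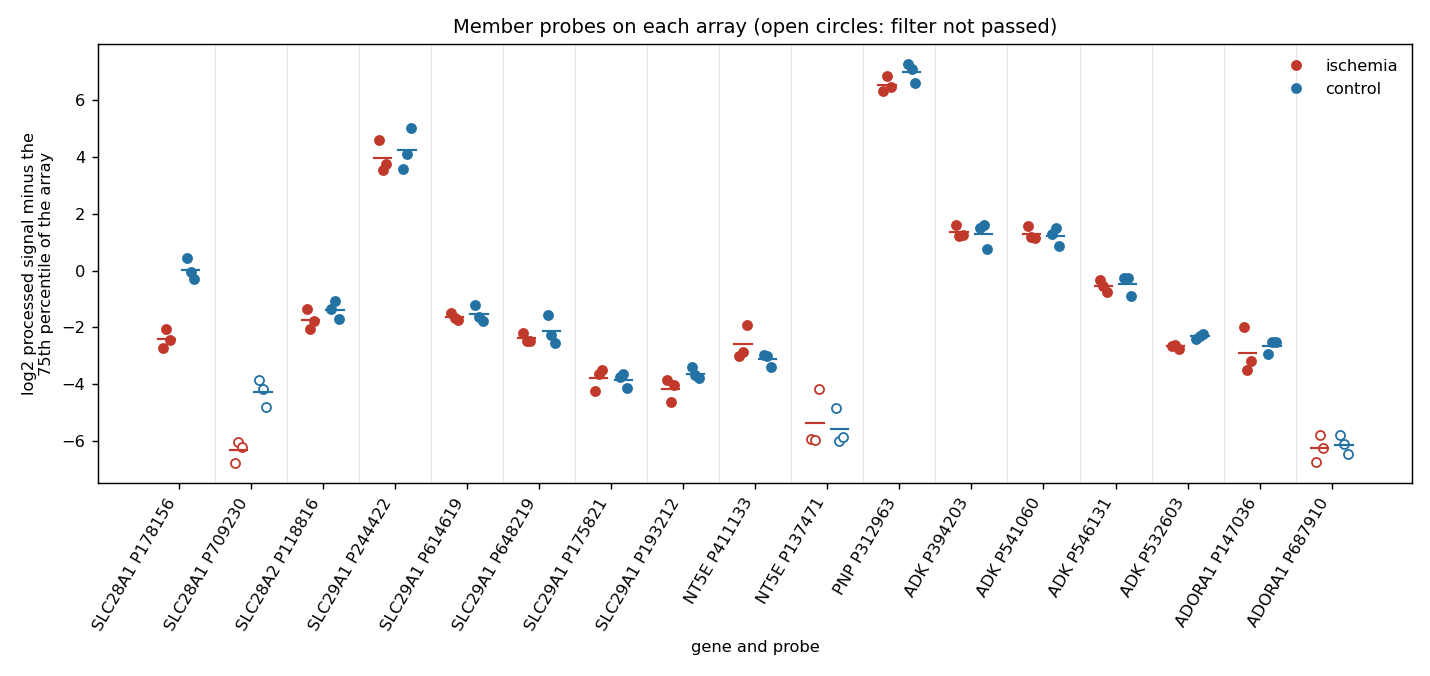
Array value (log2 processed signal minus the 75th percentile of the array) of the 17 member probes, with ischemia kidneys (red) left of control kidneys (blue). Points are arrays, lines are group means, and open circles mark the 3 probes that did not pass the filter. SLC28A1 A_72_P178156 lies between -2.73 and -2.07 in ischemia and between -0.30 and 0.45 in control.

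The size of the SLC28A1 difference depended on the processing. It was -2.37 with quantile normalization alone and -1.57 with normexp background correction and quantile normalization. In the authors' deposited table, where SLC28A1 has 1 row that lies close to the mean of both probes' log2 median signals, the row was 6.01, 6.30 and 6.01 in the ischemia kidneys, against 7.31, 6.98 and 6.82 in the control kidneys, a difference of -0.93. That row may differ from the main value in the probes it holds, which the labels do not state, as well as in its normalization. The median signals it lies close to also still hold the background, which had been removed from the main value. What each contributes was not tested.

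The tubule segment in which SLC28A1 is found was followed through its marker genes. Of the 12 proximal tubule markers tested, 11 were lower in ischemia, with a median difference of -0.68. Of all 4089 tested genes, 47.3% were lower, with a median of 0.02. Their summed signal, in units of the array's 75th percentile, was 1316 to 1599 in ischemia and 1420 to 1894 in control. The mean log2 array value of the 12 markers was 5.01 ± 0.04 in ischemia and 5.52 ± 0.35 in control (SD, n = 3 each), a difference of -0.51. When that mean was subtracted from SLC28A1 on each array, the offset was -7.74, -7.11 and -7.43 in the ischemia kidneys, against -5.40, -5.60 and -5.47 in the control kidneys. These offsets did not overlap, and their difference was -1.94, against -2.45 for SLC28A1 alone. SLC28A1 was picked for its difference in these same arrays, and the marker mean differed by only -0.51. The lack of overlap was thus nearly fixed beforehand, and nothing is read from it. In bulk tissue, fewer cells of a type and less RNA per cell cannot be told apart.

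**Figure D2:**
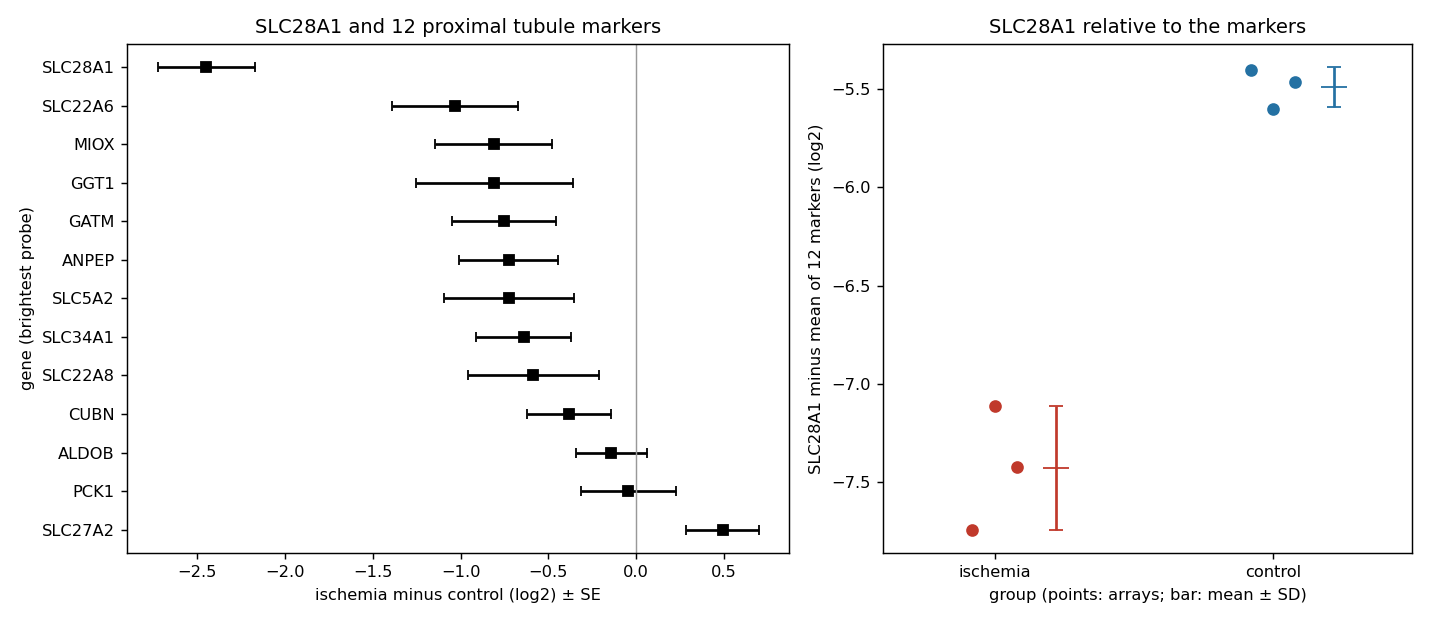
Left, difference between ischemia and control (log2, ± SE from limma) for SLC28A1 and 12 proximal tubule markers, each by its brightest probe. Right, SLC28A1 minus the mean of the 12 markers on each array, ischemia left of control, with the mean ± SD. SLC28A1 stands at -2.45, and the lowest marker, SLC22A6, at -1.03. SLC28A1 was picked for its difference in these same arrays, so both panels are descriptions.

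Markers of other cell types were followed in the same way, and their counts stand beside 47.3% of all tested genes lower in ischemia. Endothelial markers (6 of 6 listed tested) were higher for 5 and lower for 1, with summed signals of 23.8 to 35.9 in ischemia and 27.2 to 28.5 in control. Leukocyte markers (6 of 8 tested) were higher for 3 and lower for 3, with sums of 4.21 to 8.36 in ischemia and 3.25 to 4.71 in control, and CD79A did not pass the filter. Markers of the thick ascending limb and distal tubule (4 of 7 tested) were higher for 2 and lower for 2, with sums of 52.0 to 81.6 in ischemia and 52.5 to 65.6 in control. For the collecting duct (4 of 7 tested), 1 marker was higher and 3 lower, with sums of 12.2 to 20.9 in ischemia and 17.2 to 25.4 in control. Podocyte markers (2 of 6 tested) were both higher, with sums of 0.783 to 1.57 in ischemia and 0.531 to 0.887 in control. Red blood cell markers (2 of 5 tested) summed to 183 to 234 in ischemia and 170 to 351 in control, and HBB did not pass the filter. Most of these sums came from SLC25A37. HBA1, the other gene tested, varied more between the kidneys of each group than the sums show, and its groups overlapped. Skeletal muscle markers (4 of 7 tested) were higher for 2 and lower for 2, and summed to 28.8 to 41.5 in ischemia and 30.1 to 33.2 in control, and TNNT3, MYH1 and MYH2 did not pass. Within these lists 2 genes, chosen after their values were seen, had groups that stood well apart. Over all genes, ischemia lay wholly above control for 7.68% and wholly below for 4.23%. MYLPF, which encodes a regulatory light chain of fast muscle myosin, was at -0.92, -1.68 and -1.67 in the ischemia kidneys, against 0.98, 0.93 and 0.83 in the control kidneys. Its difference of -2.34 ± 0.26 (SE, adjusted p = 0.135 in limma) was close in size to that of SLC28A1, and it was -2.66, -2.60 and -1.75 within slides 1, 2 and 3. The other muscle genes tested, ACTA1 (0.14), CKM (0.54) and TNNC2 (-0.09), had groups that overlapped. CD163, a scavenger receptor of macrophages, was at 2.40, 1.76 and 1.18 in the ischemia kidneys, against 0.27, 0.36 and 0.46 in the control kidneys. Its difference was 1.42 ± 0.32 (SE, adjusted p = 0.495 in limma), and it was 1.49, 0.81 and 1.94 within the slides. CD14, in the same list, went the other way, with a difference of -0.42 that was below 0 on all 3 slides, and its groups overlapped. The part of the other cell types in the SLC28A1 result was not tested.

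SLC28A2, the sister transporter for purine nucleosides, had 1 probe, and its groups overlapped. Its array value was -1.35, -2.05 and -1.78 in the ischemia kidneys, against -1.34, -1.09 and -1.70 in the control kidneys. Ischemia kidney 1 lay above control kidney 3 and level with control kidney 1. The difference was -0.35 ± 0.27 (SE), and it was -0.71, -0.70 and 0.35 within slides 1, 2 and 3. Without ischemia replicate 1 it was -0.54, and without ischemia replicate 2 it was -0.19.

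SLC29A1, the equilibrative transporter ENT1, had 5 probes, and they did not give 1 direction. Differences were -0.27 ± 0.42 for A_72_P244422, -0.09 ± 0.22 for A_72_P614619, -0.27 ± 0.28 for A_72_P648219, 0.05 ± 0.26 for A_72_P175821 and -0.55 ± 0.26 for A_72_P193212 (SE). The sign of A_72_P614619 turned to above 0 when the arrays were centred on their median, quantile normalized, or corrected with normexp and quantile normalized. Leaving out 1 array changed the sign of 4 of the 5 probes: A_72_P244422 ran from -0.60 to 0.11, A_72_P614619 from -0.20 to 0.08, A_72_P648219 from -0.48 to 0.01 and A_72_P175821 from -0.09 to 0.28. The lowest value came without control replicate 1 for A_72_P244422 and without control replicate 3 for the other 3, and the highest without control replicate 3 for A_72_P244422, control replicate 1 for A_72_P614619 and A_72_P648219 and ischemia replicate 1 for A_72_P175821. Probe A_72_P244422 was at 4.59, 3.56 and 3.75 in the ischemia kidneys, against 3.58, 4.13 and 5.01 in the control kidneys. Probe A_72_P614619 was at -1.49, -1.66 and -1.73 in the ischemia kidneys, against -1.22, -1.63 and -1.77 in the control kidneys. In both the groups overlapped. Probe A_72_P648219 was at -2.18, -2.50 and -2.50 in the ischemia kidneys, against -1.58, -2.26 and -2.54 in the control kidneys. Probe A_72_P175821 was at -4.24, -3.63 and -3.50 in the ischemia kidneys, against -3.74, -3.66 and -4.13 in the control kidneys. These overlapped as well. Probe A_72_P193212 was at -3.87, -4.64 and -4.04 in the ischemia kidneys, against -3.42, -3.69 and -3.79 in the control kidneys. These 2 groups did not overlap, but the gap was only -0.08, and 1 of the 3 ischemia arrays was well above background, against 3 of 3 control arrays. The difference of this probe was -0.36 with quantile normalization alone and -0.03 with normexp and quantile normalization together. It ran from -0.71 without ischemia replicate 1 to -0.32 without ischemia replicate 2.

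NT5E, which encodes the enzyme that forms adenosine outside the cell, was the member whose difference lay highest. Probe A_72_P411133 was at -3.02, -2.87 and -1.91 in the ischemia kidneys, against -2.98, -3.0 and -3.38 in the control kidneys. Ischemia kidney 3 stood above the others, and the other ischemia kidneys were within or close to the control range. The difference was 0.52 ± 0.32 (SE) and lay above 0 on all 3 slides, at 0.11, 1.09 and 0.36. Without ischemia replicate 3 it was 0.18. The other NT5E probe, A_72_P137471, was below that limit on all 6 arrays and has no fold change. Its array value was -5.95, -5.99 and -4.17 in the ischemia kidneys, against -4.84, -6.0 and -5.88 in the control kidneys, which overlapped.

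PNP, the phosphorylase that splits inosine and guanosine, was measured by 1 probe. Its array value was 6.33, 6.85 and 6.46 in the ischemia kidneys, against 7.29, 7.12 and 6.61 in the control kidneys. Ischemia kidney 2 lay above control kidney 3, so the groups overlapped, although ischemia was the lower array on every slide. The difference was -0.46 ± 0.26 (SE), with -0.44, -0.66 and -0.27 within slides 1, 2 and 3.

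ADK, which returns adenosine to AMP, was measured by 4 probes. Differences were 0.07 ± 0.28 for A_72_P394203, 0.07 ± 0.24 for A_72_P541060 and -0.07 ± 0.25 for A_72_P546131 (SE), and the last turned to above 0 when the arrays were centred on their median. Probe A_72_P394203 was at 1.59, 1.22 and 1.26 in the ischemia kidneys, against 1.5, 1.61 and 0.76 in the control kidneys. Probe A_72_P541060 was at 1.56, 1.17 and 1.15 in the ischemia kidneys, against 1.31, 1.51 and 0.87 in the control kidneys. Probe A_72_P546131 was at -0.32, -0.54 and -0.75 in the ischemia kidneys, against -0.26, -0.26 and -0.89 in the control kidneys. In these 3 probes the groups overlapped, control kidney 3 was the lowest of the 6, and each was lower in ischemia on slides 1 and 2 and higher on slide 3. Probe A_72_P532603 was at -2.65, -2.61 and -2.76 in the ischemia kidneys, against -2.40, -2.31 and -2.24 in the control kidneys. Here the groups did not overlap, and the replicates lay close together (SD of 0.08 in each group). Its difference was -0.35 ± 0.18 (SE) and was -0.20 with median centring, -0.23 with quantile normalization alone, -0.12 with normexp and quantile normalization together, and -0.40 without control replicate 1. Its sequence, printed above, shared no stretch of 15 bases with any of the other ADK probes. The same held for A_72_P546131, although its slides had the signs of A_72_P394203 and A_72_P541060. These last 2 probes shared 16 bases.

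ADORA1, the A1 adenosine receptor, gave 1 probe that passed the filter, A_72_P147036. Of the 3 ischemia arrays, 2 had this probe well above background, against 3 of 3 control arrays. The probe was at -1.99, -3.52 and -3.19 in the ischemia kidneys, against -2.94, -2.53 and -2.52 in the control kidneys. Ischemia kidney 1 was the highest of the 6 and the other ischemia kidneys the lowest, and the spread within ischemia (SD 0.81) exceeded that within control (SD 0.24). The difference was -0.24 ± 0.40 (SE), and it was 0.07 without ischemia replicate 2 and -0.69 without ischemia replicate 1. The second probe, A_72_P687910, was too dim on all 6 arrays and did not pass the filter. Its array value was -6.75, -5.79 and -6.27 in the ischemia kidneys, against -5.80, -6.13 and -6.47 in the control kidneys, which overlapped.

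**Figure D3:**
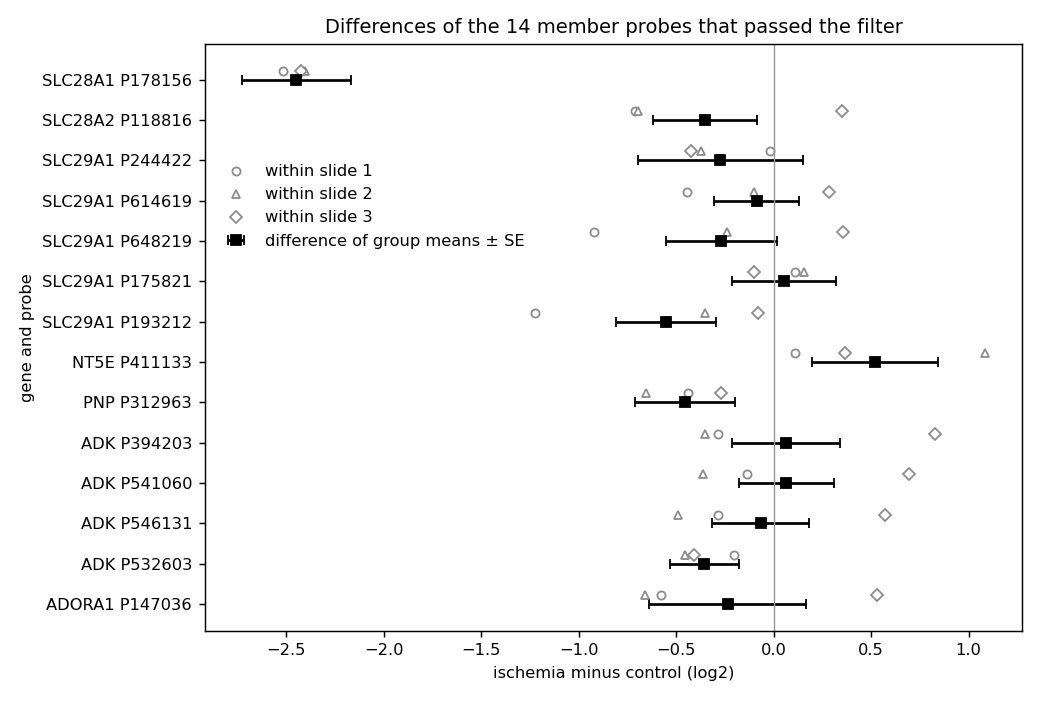
Difference between ischemia and control (log2) of the 14 member probes that passed the filter. Squares with bars are the difference of group means ± SE, and open symbols are the differences within each of the 3 slides. For SLC28A1 the slides lie between -2.52 and -2.40, and for 8 of the other 13 probes they lie on both sides of 0.

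Of the 17 member probes, 14 passed the filter and were tested with limma over all 25017 probes. At an adjusted p under 0.05 (Benjamini-Hochberg), 0 of the 14 passed, and over all probes 1 did (0.004%). At an unadjusted p under 0.05, 1 of the 14 was lower, SLC28A1 A_72_P178156, and 0 were higher, against 3.3% of all probes lower and 2.99% higher. The groups did not overlap for 3 of the 14, all with ischemia below control, namely SLC28A1 A_72_P178156, SLC29A1 A_72_P193212 and ADK A_72_P532603, and this held for 5% of all probes, while 5.92% of all probes had ischemia wholly above control. Nothing is read from these shares, since the set was chosen on the same comparison. Of the 14 probes, 10 had a difference below 0, with a median of -0.25, against 55.7% of all tested probes and a median of -0.04. On all 3 slides the sign was the same for 6 of the 14, or for 5 of the 13 without SLC28A1. This share was not counted over all probes, so nothing is read from it.

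The wider set of nucleoside and nucleotide genes held 65 genes, of which 31 had a probe and 28 were tested by their brightest probe. None of the 28 passed at an adjusted p under 0.05 with limma, as for all 4089 genes (0%), and at an unadjusted p under 0.05, 1 was higher and 2 lower, against 3.74% of all genes higher and 2.91% lower. Without the members, 21 genes were tested, of which 13 were higher and 8 lower in ischemia, with a median of 0.21. Over all genes the median was 0.02, and 47.3% were lower. For 2 of these 21 all ischemia kidneys lay above all control kidneys, against 7.68% of all genes, and for 1 they lay below, against 4.23%.

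In uptake and release, SLC29A3, an equilibrative transporter of intracellular membranes, was at 1.81, 2.38 and 2.11 in ischemia, against 2.30, 1.76 and 1.34 in control, a difference of 0.29 ± 0.29 (SE). Without control replicate 3 this was 0.06, and without control replicate 1 it was 0.54. In nucleotide breakdown outside the cell, 4 of 5 tested genes, NT5E among them, had a difference above 0, with a median of 0.59. Of all genes, 47.3% had a difference below 0. All 5 genes of this role had groups that overlapped. The median was the value of ENTPD5, which was at -0.13, -1.82 and 0.77 in ischemia, against -0.86, -0.98 and -1.13 in control. The gene of smallest p in this role, ENPP3, an ectonucleotide pyrophosphatase, was at -0.67, -0.36 and -1.75 in ischemia, against -1.89, -1.96 and -1.33 in control. Its difference of 0.80 ± 0.39 (SE) was 0.52 without ischemia replicate 2 and 1.21 without ischemia replicate 3. Its groups overlapped, because ischemia kidney 3 lay below control kidney 3.

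In nucleotide breakdown inside the cell, AHCY, which releases adenosine from S-adenosylhomocysteine, was at 6.25, 6.40 and 6.42 in ischemia, against 6.20, 6.0 and 5.48 in control. Its groups did not overlap, with a gap of 0.05 and a difference of 0.46 ± 0.24 (SE), which was 0.25 without control replicate 3. In purine breakdown, DPP4, a brush border peptidase that binds adenosine deaminase on the cell surface in humans, was at 5.80, 5.94 and 6.57 in ischemia, against 6.81, 6.88 and 6.20 in control, and overlapped (difference -0.53 ± 0.29, SE). In that role 3 of the 4 tested genes were lower in ischemia and 1 higher, with a median of -0.31. In pyrimidine breakdown, 3 of the 4 tested genes were lower too, with a median of -0.18. Of all genes, 47.3% were lower. The 1 higher gene of pyrimidine breakdown was DPYS, the dihydropyrimidinase. It was at 5.61, 5.51 and 6.55 in ischemia, against 5.55, 5.52 and 5.44 in control, and the groups overlapped. Its difference of 0.39 ± 0.30 (SE) was 0.06 without ischemia replicate 3.

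In salvage, all 3 tested genes had a difference above 0 by their brightest probe, but that of ADK (0.07) was -0.20 without control replicate 3 and -0.23 with array weights, and 2 other ADK probes were below 0. HPRT1, which returns hypoxanthine and guanine to nucleotides, was at 1.96, 2.00 and 1.91 in ischemia, against 1.65, 1.54 and 1.60 in control. The groups did not overlap, the gap was 0.26, and the difference of 0.36 ± 0.17 (SE) was 0.36, 0.37 and 0.35 within slides 1, 2 and 3.

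Among the receptors, 2 of the 3 tested were lower in ischemia and 1 higher, where 47.3% of all genes were lower. The higher was ADORA3, the A3 adenosine receptor, at -3.09, -2.06 and -1.87 in ischemia, against -3.27, -3.44 and -2.89 in control. The difference was 0.86 ± 0.35 (SE), but ischemia kidney 1 lay within the control range, and on slide 3 the difference was -0.20. Among the urate transporters, 1 of the 3 tested was lower and 2 higher. The lower was SLC17A3, which in humans carries urate out of proximal tubule cells. It was at -1.09, -1.0 and -1.24 in ischemia, against 0.95, -0.27 and -0.41 in control. Its groups did not overlap, and the difference was -1.20 ± 0.37 (SE), or -0.77 without control replicate 1, which stood above the other control kidneys. The adjusted p of ADORA3 was 0.777 and that of SLC17A3 0.660 in limma, so neither passed.

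**Figure D4:**
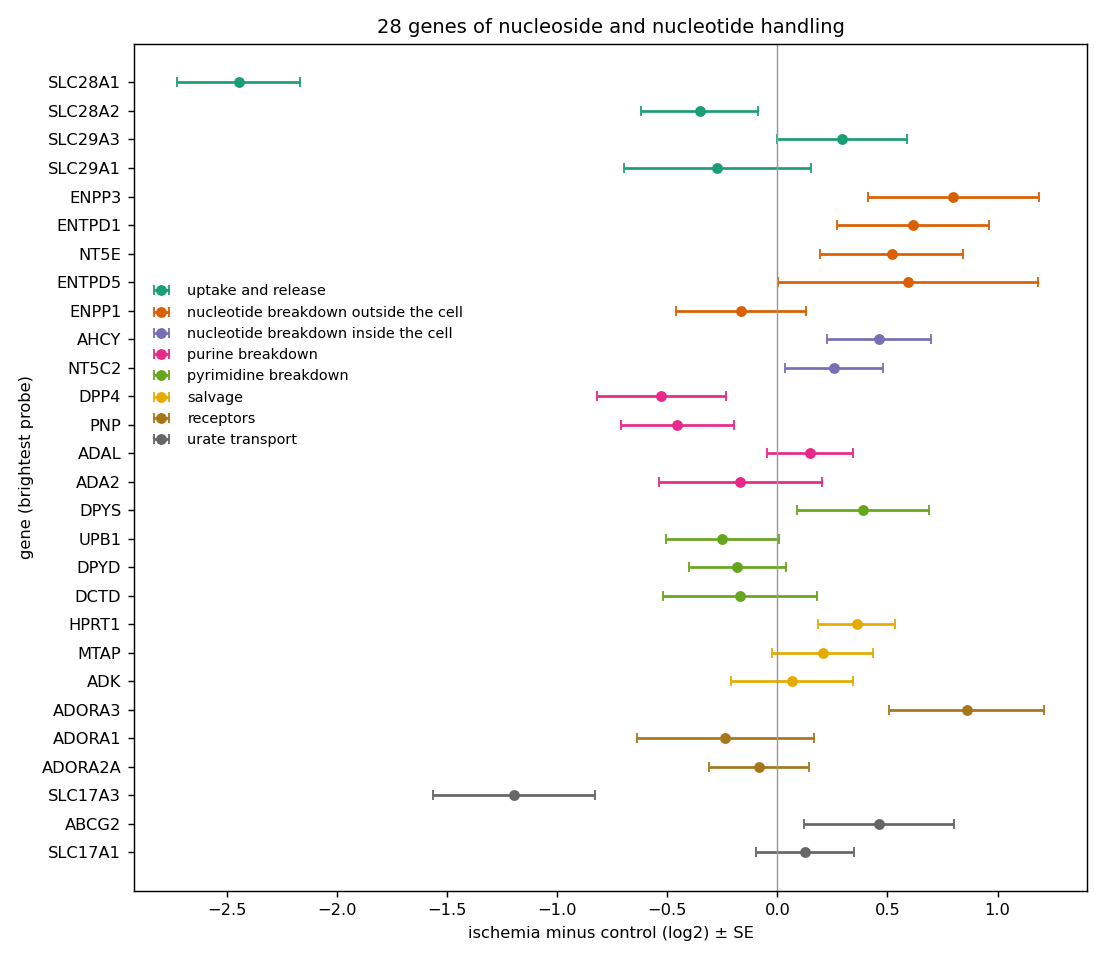
Difference between ischemia and control (log2, ± SE from limma) of the 28 tested genes of nucleoside and nucleotide handling, each by its brightest probe and coloured by role. SLC28A1 lies at -2.45, and the others run from -1.20 (SLC17A3) to 0.86 (ADORA3).

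The genes whose array values were most like those of SLC28A1 over the 6 arrays were KBTBD7 (r = 0.990), CD247 (0.971), DHRS7 (0.971), MTDH (0.963) and TNXB (0.960), by Pearson r among named genes outside the set. These genes were selected for following a gene whose groups stand apart, so ischemia was the lower in all 5 without overlap (4.23% of all genes), and nothing is read from that. Their differences were -0.77, -1.33, -0.69, -0.26 and -0.45 in the same order. When the group means were subtracted first, the genes most like SLC28A1 were HSP90AB1 (r = 0.997), CIART (0.993), CLDN4 (0.987), OLFML3 (0.986) and LGALS3 (0.985). Their differences between the groups were small, from -0.26 for CIART to 0.27 for LGALS3, and all 5 overlapped. These genes are the highest of 4081 candidates over 6 arrays that share slides and scaling, so r is given as a description only. Among the tested probes of the other members, the r of the deviations was highest for PNP (0.925). It was lowest for SLC29A1 A_72_P244422 (-0.927), and nothing is read from either.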

How the data were processed

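RNA of 6 renal cortex samples was labelled with Cy3 and hybridised to 1-colour Agilent arrays, 1 per kidney, per the labels. The deposited scanner files hold spot intensity, background-subtracted and spatially detrended within each array by Agilent Feature Extraction 10.10.1.1 and not scaled between arrays, per the file headers. Version 11.5.1.1, limma and R 2.15.2 stand in the submitters' processing notes. The value table the authors deposited holds log2 values in 36796 rows, with column medians of 5.91 to 5.99. Its normalization between arrays is unknown here. A row of a gene name with several probes lay closer to the mean of the probes' log2 median signals than to the signal of its own probe, in each of the 6 columns, so it was not used for single probes other than as the SLC28A1 row.

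The main values were log2 processed signal minus the array's 75th percentile, without control and outlier spots. A probe was kept if 3 or more of the 6 arrays had it well above background and 5 or more had a value, which left 25017. The fit was limma's lmFit and eBayes (limma 3.58.1, R 4.3.3), two-sided, with Benjamini-Hochberg adjustment over these probes. With 3 arrays in each group the smallest p of an exact permutation test is 0.1, and no such test was run. Of the member probes, 1 was matched by gene name, 2 by an older name (PKCNT1 for SLC28A1), 7 by gene number, 2 by accession, 4 by full protein name and 1 by similarity to a mammalian protein, and 11983 probes in all had a symbol. The files' gene name alone would have given PNP and, by its older name, SLC28A1.

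All members and their probes are named. Of the wider set, the gene of smallest unadjusted p in each role is named, with the 5 genes most like SLC28A1 by each measure. MYLPF, CD163, ENTPD5 and the single marker genes set beside them were named after their values were seen. The members and lists were chosen with earlier results of these data known. The value of 1 marker gene is not reported here. Alternatives were other scalings, normexp (offset 50), the deposited table, other filters, outlier spots kept, array weights, a variance trend, a block for slide or for replicate number, and each array left out. In 10 simulations on 24997 probes with 200 changed, the procedure recovered 2.4% of 2-fold and 52.1% of 4-fold changes, and 5.38% of its calls were false.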

Additional observations from a re-analysis of the deposited data

How the results depend on the processing

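SLC28A1 was lower in ischemia under all 17 alternatives, and its difference moved by more than the spread between replicates under 2 of them. It was -1.57 with normexp and quantile normalization and -0.93 in the authors' deposited table. The row of that table seems to combine both probes, which the labels do not state, and lies close to signals that still hold the background. Leaving out 1 array at a time gave -2.62 to -2.24. Of the 14 tested member probes, 10 were below 0 in the main setting and 7 to 12 over the alternatives, also when 1 array was left out. The deposited table was not counted here, since its rows for a gene name with several probes seem to combine them. Over all probes, 1 passed an adjusted p under 0.05, against 11 with median centring, 3 each with normexp, the deposited table, a variance trend and the filter for all 6 arrays, 868 with array weights (whose fit stopped before it converged), 0 with quantile normalization, without a filter, with slide as a block and with the replicate block, and 0 to 1 with 1 array left out. Of the nucleoside genes 0 passed, except 1 with array weights, which was SLC28A1. Median centring moved the median difference of all probes to 0.11 and the deposited table to 0.14, against -0.04, and the share of probes below 0 was then 36.2% and 27.2%, against 55.7%. Relative to the median of all probes, SLC28A1 was at -2.41 both in the main setting and with median centring. The replicate numbers did not pair the samples (correlations of deviations of -0.35, -0.17 and -0.05), whereas arrays on 1 slide deviated together (0.34, 0.10 and 0.33). Each SE and p printed for a single gene or probe comes from the fit without slide, and so leaves this pairing out. Signal near background limits A_72_P709230, A_72_P137471 and A_72_P687910, for which no fold is given.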
